A study of Homo sapiens with 4 samples.

Results

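The 8 genes described here belong to cholesterol synthesis and its control by the transcription factor SREBP2: HMGCS1, IDI1, FDFT1, SQLE, LSS, DHCR7, INSIG1 and SREBF2. They were taken by gene symbol from the 62696 genes counted in each of 4 RNA-seq libraries of NT2 cells (NTERA-2), a human embryonal carcinoma line. Per the labels, 1 library came from wild-type cells with an empty vector and 3 came from cells with HYDIN2 knockdown, numbered as replicates 1 to 3, all grown in serum-containing medium. Whether the replicates were separate cultures or clones, and how the knockdown was made, is not given in the sources used here, so their spread may be technical. Each of the 8 symbols matched 1 row in every file, and all 8 passed the expression minimum, a mean of at least 1 CPM (counts relative to the scaled library total) over the group means.

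Cells make cholesterol from acetyl-CoA through mevalonate, isoprenoid diphosphates, squalene and lanosterol. When sterols in the endoplasmic reticulum membrane are low, the escort protein SCAP carries SREBP2 to the Golgi, where proteases release its transcription factor domain, and this turns on the genes of the pathway and of sterol uptake. When sterols are plentiful, INSIG proteins hold SCAP and SREBP2 back, so these transcripts are widely read as a gauge of the sterol supply of cultured cells. Proliferating tumour cells of many kinds carry out this synthesis themselves.

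The targeted gene did not separate the groups as labelled. HYDIN2 had 12 counts in the empty vector library, called the control below (0.50 CPM), and 150, 112 and 11 counts in the libraries labelled knockdown replicates 1, 2 and 3 (2.41, 1.88 and 0.352 CPM), so it was not lower beyond counting error in any of them. Library totals ran from 25181737 to 62904698 counts. Replicates 1 and 2 were nearly alike, with 0.302% of 15880 genes at least 2-fold apart, while replicate 3 stood apart from them by that measure in 21.6% and 22.9% of genes. Values are therefore given per library, and counts of genes also without replicate 3. All 10 markers of embryonal carcinoma cells were detected, with a summed level of 8826 CPM in the control and 8002 to 9677 CPM in the others. Within that list 5 of 10 markers lay below the control in all 3 libraries and 2 lay above. Over all genes tested these shares were 34.2% and 30.1%. DNMT3B, a DNA methyltransferase, was 2-fold lower in each, as were 2.72% of genes, with 795 CPM against 340, 350 and 349 CPM. L1TD1 had log2 differences of -0.97, -0.98 and -1.06, and POU5F1, TDGF1 and DPPA4 were more than 2-fold lower in replicate 3 alone. The markers above the control in all 3 were PODXL and SALL4. PODXL had 1838 CPM in the control and 2566, 2461 and 3866 CPM in replicates 1, 2 and 3. It thus kept up the sum of replicate 3. LIN28A had 2844 against 3513, 3620 and 1912 CPM, and NANOG had 502 against 820, 817 and 323 CPM. The summed level of 7 neuronal markers was 50.4 CPM in the control and 92.0, 90.6 and 64.4 CPM in replicates 1, 2 and 3, and that of 6 fibroblast markers was 115 against 177, 162 and 144 CPM. Of 6 markers of hepatocytes and yolk sac endoderm, ALB, TTR, AFP and FGB were at 0 in the empty vector library, and the list summed to 5.79 CPM there and to 7.77 to 7.98 CPM elsewhere. Not all markers followed these sums: of 7 neuronal markers 3 lay above the control in all 3 libraries and 1, RBFOX3, below. Of 5 fibroblast markers tested 3 lay above, beside the 30.1% of all genes tested. In replicate 3 the neuronal sum rested on MAP2 (9.16 CPM in the control, 34.5 CPM there) and the fibroblast sum on COL1A1 (76.5 and 110 CPM), while COL3A1 had 4.04 CPM in the control and 0.739, 0.570 and 6.21 CPM in replicates 1, 2 and 3. The marker genes named here were chosen after their values were seen. The part of these markers in the results was not tested. In bulk RNA, fewer cells of a type and less RNA per cell cannot be told apart.

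Promoter stretches are shown for 6 of the 8 genes, because these genes lay below the empty vector library together and SREBP2 is known to act on such promoters with the partner factors NF-Y and Sp1. RefSeq on GRCh38.p14 gave 10 windows for these 6 genes, each from 250 bases before a transcript start to 50 after it. Capitals mark matches, on either strand, to TCACNCCAC (the core of a sterol regulatory element), CCAAT (NF-Y) or GGGCGG (Sp1). The Sp1 matches of DHCR7 and SREBF2 lie outside the stretches shown. The stretches lie at chr22:41832965-41833010 (plus strand, SREBF2), chr5:43313513-43313577 (minus, HMGCS1), chr10:1049179-1049244 (minus, IDI1), chr21:46228829-46228934 (minus, LSS), chr11:71448436-71448498 (minus, DHCR7) and chr7:155297693-155297768 (plus, INSIG1).
SREBF2: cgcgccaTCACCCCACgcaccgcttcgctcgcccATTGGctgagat
HMGCS1: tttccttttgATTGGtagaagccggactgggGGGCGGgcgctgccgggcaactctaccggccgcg
IDI1: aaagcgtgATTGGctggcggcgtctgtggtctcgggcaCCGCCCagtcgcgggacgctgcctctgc
LSS: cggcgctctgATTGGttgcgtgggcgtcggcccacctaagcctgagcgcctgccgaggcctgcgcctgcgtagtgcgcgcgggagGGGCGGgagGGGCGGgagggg
DHCR7: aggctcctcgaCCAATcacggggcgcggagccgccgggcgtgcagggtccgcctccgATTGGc
INSIG1: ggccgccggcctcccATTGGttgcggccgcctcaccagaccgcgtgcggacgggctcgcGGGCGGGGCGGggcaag

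All 6 genes had a CCAAT match in at least 1 window, often as its reverse complement, whereas 34.6% of all 35116 promoter windows had one. HMGCS1, IDI1 and DHCR7 each also had a window without a CCAAT match. The same genes had at least 2 such matches in another window, which 10.8% of all windows had. All 6 also had a GGGCGG match in at least 1 window, against 45.0% of all windows, and DHCR7 had a window without it. Among the 6 genes TCACNCCAC matched only in SREBF2, 133 bases before its transcript start and followed by an NF-Y match at 106 bases, and it matched in 1.13% of all windows. The E-box CACGTG, which SREBPs can also bind, matched in INSIG1 at 55 bases before the start and in LSS after the start, and in 7.26% of all windows. The comparison is descriptive: a gene can have several windows, so a count by gene and a share of windows are unlike measures. A missing match says only that these letters were not in that window. Among other genes of the pathway, a CCAAT match was found in 3 of 5 genes with a window up to squalene and in 6 of 8 after lanosterol, and in 0 of 5 genes of SREBP control. The lists of other roles described further on had it in 9 of 12 fatty acid genes, 5 of 7 isoprenoid genes, 4 of 6 genes of uptake and transport and 6 of 12 genes of efflux and oxysterols.

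**Figure D1:**
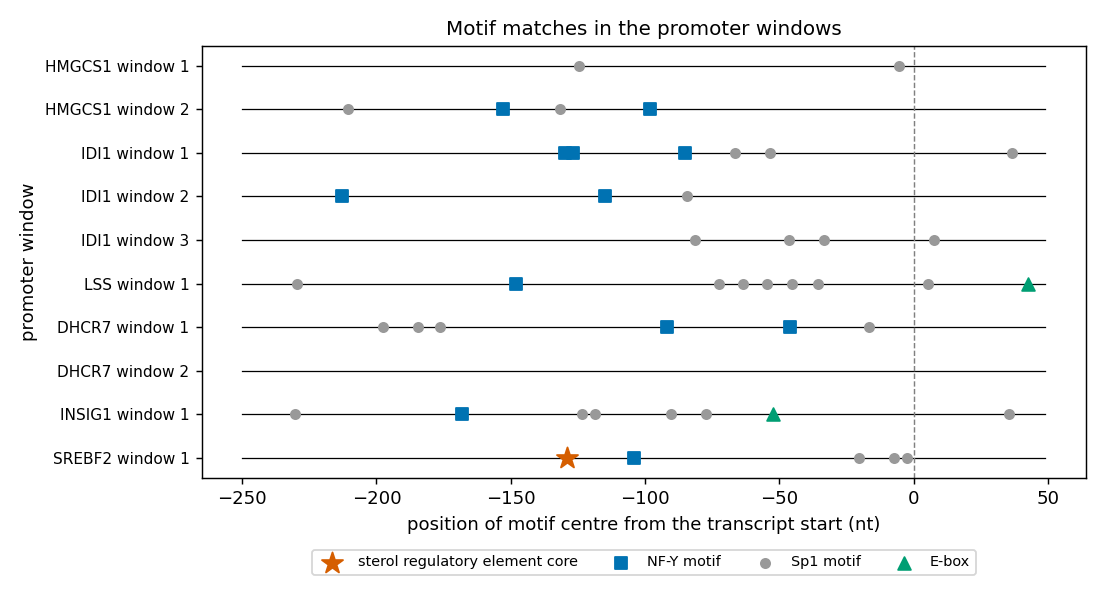
Motif matches along the 10 RefSeq promoter windows of 6 genes; the x axis is the distance of the motif centre from the transcript start in nucleotides, and each line is 1 window. At least 1 window of each gene carries NF-Y squares upstream of the start, and SREBF2 alone carries the sterol regulatory element core.

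The first comparison asked how each of the 8 genes stood in the labelled knockdown libraries against the empty vector library. All 8 were lower in each of the 3 libraries, a pattern found in 34.2% of 15880 genes tested. HMGCS1, IDI1 and FDFT1 were at least 2-fold lower in each of the 3, by the rule of a log2 CPM difference of -1 or beyond, which 2.72% of genes passed. None of the 8 was at least 2-fold higher in each library, against a background of 3.65%. At 1.5-fold the lower genes were 5, with SQLE and INSIG1 added, against 9.61% of all genes.

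HMGCS1 (ENSG00000112972.15; GRCh38 chromosome 5, 43289395 to 43313512, minus strand) encodes the cytosolic synthase that makes HMG-CoA, an early intermediate of the pathway. Its level was 75.1 CPM in the control and 14.3, 16.1 and 30.2 CPM in replicates 1, 2 and 3. All 3 lay below the empty vector library, with replicate 3 between it and the other replicates. The log2 differences were -2.39, -2.22 and -1.31, with a mean of -1.97 ± 0.58 (SD, n = 3). IDI1 (ENSG00000067064.13; chromosome 10, 1039152 to 1049170, minus strand) encodes the isomerase that converts isopentenyl to dimethylallyl diphosphate. It had 73.6 CPM in the control and 17.1, 19.6 and 26.5 CPM in replicates 1, 2 and 3. The log2 differences of IDI1 were -2.10, -1.91 and -1.47, a mean of -1.83 ± 0.32 (SD, n = 3), the smallest spread among the 6 enzymes.

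FDFT1 (ENSG00000079459.13; chromosome 8, 11795573 to 11839309, plus strand) encodes squalene synthase, the first enzyme committed to sterols. It was the most abundant of the 6 enzymes and also the one with the largest difference. Its level was 362 CPM in the control, from 8700 counts, and 53.4, 61.6 and 102 CPM in replicates 1, 2 and 3. The ratios to the empty vector library were 0.147 (95% interval 0.139 to 0.156), 0.170 (0.161 to 0.180) and 0.281 (0.266 to 0.298), where intervals cover counting error only. The mean log2 difference of FDFT1 was -2.38 ± 0.49 (SD, n = 3), and its mean level was 5.01-fold lower.

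SQLE (ENSG00000104549.12; chromosome 8, 124998497 to 125022283, plus strand) encodes squalene epoxidase, a rate-limiting oxygen-dependent step. It had 64.3 CPM in the control and 24.7, 27.4 and 42.5 CPM in replicates 1, 2 and 3, so replicate 3 was 1.51-fold lower and the others 2.60-fold and 2.35-fold lower. LSS (ENSG00000160285.15; chromosome 21, 46188141 to 46228824, minus strand) encodes lanosterol synthase, which closes the sterol rings. Its level was 34.1 CPM in the control and 15.2, 15.5 and 23.9 CPM in replicates 1, 2 and 3. DHCR7 (ENSG00000172893.18; chromosome 11, 71428193 to 71452868, minus strand) encodes the reductase of the last step, which turns 7-dehydrocholesterol into cholesterol. It had 73.8 CPM in the control and 28.2, 30.4 and 55.8 CPM in replicates 1, 2 and 3, the last being 1.32-fold lower. For these 3 genes the mean log2 differences were -1.07 ± 0.42, -0.94 ± 0.37 and -1.02 ± 0.54 (SD, n = 3), and the 2-fold rule was met in replicates 1 and 2 but not in replicate 3.

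INSIG1 (ENSG00000186480.13; chromosome 7, 155297776 to 155310235, plus strand) encodes the membrane protein that retains SCAP when sterols are high, and it is itself a target of SREBP2. It had 30.2 CPM in the control and 5.81, 6.65 and 16.6 CPM in replicates 1, 2 and 3. Replicates 1 and 2 lay 5.20-fold and 4.55-fold below the empty vector library and replicate 3 lay 1.82-fold below, the widest spread among the 8 genes. The mean log2 difference of INSIG1 was -1.80 ± 0.82 (SD, n = 3).

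SREBF2 (ENSG00000198911.12; chromosome 22, 41833079 to 41907308, plus strand) encodes SREBP2 and hosts the microRNA gene MIR33A in an intron. It differed least, with 191 CPM in the control and 138, 137 and 108 CPM in replicates 1, 2 and 3. Its order also differed: replicate 3 was the lowest library for SREBF2, with a log2 difference of -0.83 against -0.48 and -0.49. In each of the other 7 genes replicate 3 lay between the empty vector library above and replicates 1 and 2 below, an order seen in 10.7% of all genes tested. The mean log2 difference of SREBF2 was -0.60 ± 0.20 (SD, n = 3). SREBF2-AS1 shares 280 exon bases with SREBF2 on the other strand, and antisense genes overlap exons of HMGCS1, IDI1, FDFT1 and LSS too. The strand setting of the counting is not given in the sources used here, so the counts of these genes may hold antisense reads.

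Counting error was small against these differences. Each of the 24 ratios of a labelled knockdown library to the empty vector library had a 95% interval below 1, and the 8 genes met this in all 3 libraries, as did 22.2% of all genes tested. The ratios ran from 0.147 to 0.719 in replicate 1, from 0.170 to 0.714 in replicate 2 and from 0.282 to 0.756 in replicate 3. FDFT1 had the lowest ratio in each library, and SREBF2 had the highest in replicates 1 and 2 while DHCR7 had it in replicate 3. Between replicates 1 and 2 the log2 difference of a gene was at most 0.21, for FDFT1. Replicate 3 was higher than replicate 1 by 1.51 on the log2 scale for INSIG1, 1.08 for HMGCS1, 0.98 for DHCR7 and 0.93 for FDFT1. For SQLE, LSS and IDI1 this gap was 0.78, 0.65 and 0.63. Exon length ran from 3650 to 7557 nt over the 8 genes, around the median of 4836 nt for all genes tested, and GC content of the longest transcript from 40.2% to 58.3%, around 47.8%. Removal of trends on length and GC content from each library's differences left the median of the 8 genes at -1.38, with the same 3 genes 2-fold lower in each library.

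**Figure D2:**
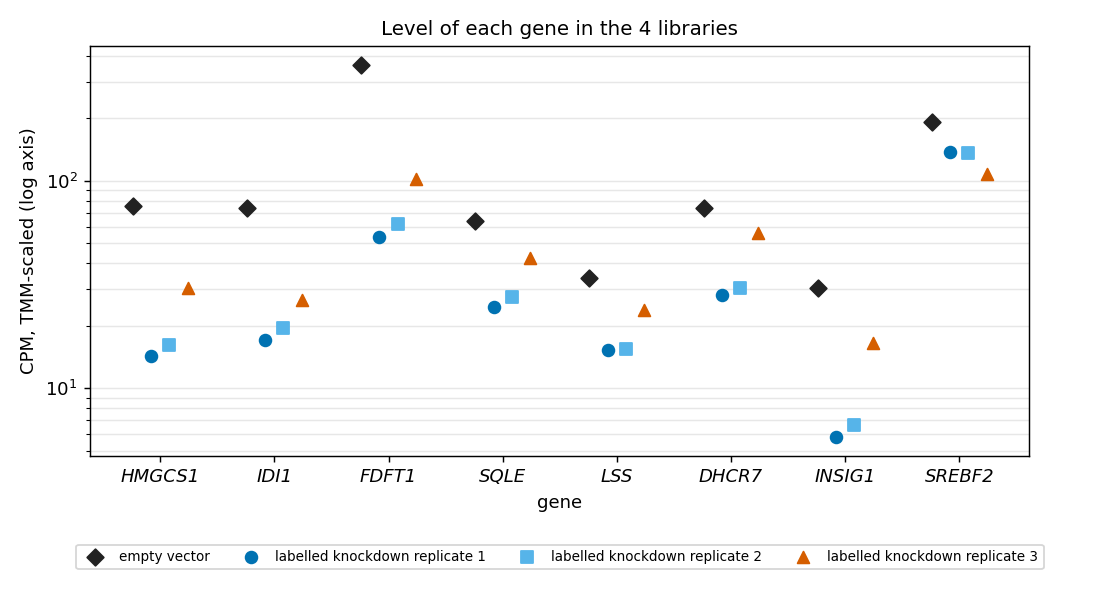
Level of each of the 8 genes in the 4 libraries, in TMM-scaled CPM on a log axis; each marker is 1 library. The empty vector diamond is the highest marker of every gene, and replicate 3 lies above replicates 1 and 2 in all genes but SREBF2.

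Over the 8 genes, the median of the mean log2 difference was -1.44, and over all genes tested it was -0.02. In single libraries the median of the 8 was -1.74, -1.59 and -0.85 for replicates 1, 2 and 3, beside 0.03, 0.05 and -0.15 over all genes. Relative to the median gene the 8 thus stood at -1.77, -1.64 and -0.69. Scaling by total counts moved the median gene of replicate 3 to 0.04, a shift that applies to every value of that library, and all 8 genes stayed lower on average under each scaling tried. Summed over the 6 enzymes, the level was 683 CPM in the control and 153, 171 and 281 CPM in replicates 1, 2 and 3. That is 4.47-fold, 4.00-fold and 2.43-fold lower. FDFT1, with the largest difference, gave 362 CPM of this sum in the control and 53.4, 61.6 and 102 CPM in replicates 1, 2 and 3. These folds therefore lean on FDFT1.

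The error of the comparison is limited by the single empty vector library. edgeR's quasi-likelihood test, in which that library is assumed to vary like the labelled knockdown libraries, called 0 of 26029 genes after Benjamini-Hochberg adjustment, and so none of the 8 (0% lower, 0% higher). Adjusted p in that edgeR fit ran from 0.358 for HMGCS1, IDI1 and FDFT1 to 0.474 for DHCR7. Unadjusted, edgeR gave p under 0.05 for 5 of the 8, all lower, and for 5.19% of all genes in that direction. DESeq2 called 3 of the 8 as lower, FDFT1 (adjusted p = 0.000898), IDI1 (0.0134) and HMGCS1 (0.0293), against 0.379% of 16634 genes with an adjusted p. Without replicate 3, edgeR called all 8, but it also called 21.2% of all genes as lower and 23.5% as higher. Without replicate 1 or without replicate 2 edgeR called only FDFT1 of the 8, with adjusted p of 0.0331 and 0.00421, and it called 0.0304% and 0.0608% of all genes as lower. By the 2-fold rule, 7 of the 8 were lower without replicate 3, against 5.50% of all genes. An exact permutation test of 1 library against 3 cannot go below p = 0.25.

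Levels were compared between genes per kilobase of exon, as RPKM from the scaled CPM. In the empty vector library FDFT1 was highest at 69.7 RPKM, followed by SREBF2 at 25.3 RPKM. DHCR7, IDI1, HMGCS1 and SQLE followed at 17.7, 16.9, 16.0 and 14.9 RPKM, where the counting interval of each overlapped that of the next. INSIG1 with 8.29 RPKM and LSS with 4.71 RPKM were lowest. In the labelled knockdown libraries the order changed at the top, with SREBF2 at 16.8 ± 2.25 RPKM and FDFT1 at 13.9 ± 5.00 RPKM (SD, n = 3). DHCR7 had 9.17 ± 3.69, SQLE 7.33 ± 2.23, IDI1 4.85 ± 1.12, HMGCS1 4.30 ± 1.86, INSIG1 2.66 ± 1.65 and LSS 2.52 ± 0.68 RPKM (SD, n = 3). Every gene in this second order overlapped its neighbour over the 3 libraries. Within each of the 3, though, FDFT1 exceeded DHCR7, DHCR7 exceeded SQLE, and SQLE exceeded IDI1 and HMGCS1, all beyond counting error. INSIG1 and LSS changed order between libraries, and IDI1 and HMGCS1 overlapped in replicate 3. Within replicates 1 and 2 SREBF2 exceeded FDFT1 beyond counting error, 18.2 against 10.3 RPKM and 18.1 against 11.9 RPKM, while in replicate 3 FDFT1 exceeded SREBF2, 19.6 against 14.3 RPKM.

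**Figure D3:**
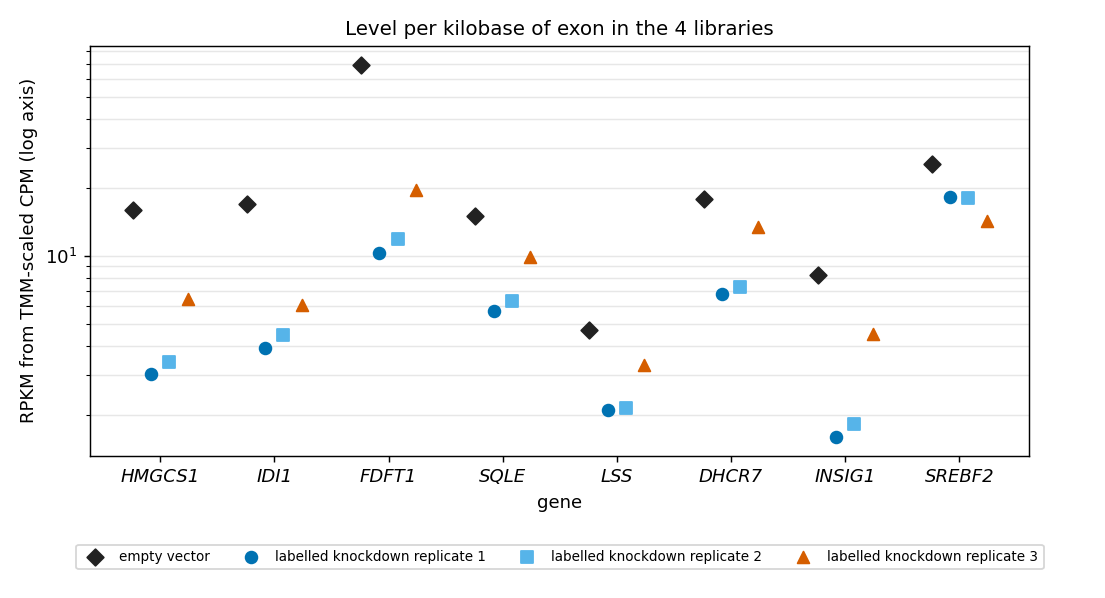
Level per kilobase of exon of the 8 genes in the 4 libraries, as RPKM from TMM-scaled CPM on a log axis; each marker is 1 library. FDFT1 is the highest gene in the empty vector library at 69.7 RPKM and in replicate 3, and SREBF2 is the highest in replicates 1 and 2.

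Other enzymes of the pathway were then examined. Of 14 such genes, 12 passed the expression minimum. Of these, 11 lay below the empty vector library in all 3 libraries, against 34.2% of all genes tested. The 2-fold rule was met in each library by 3, MVD, FDPS and MSMO1, all lower, against 2.72% of all genes. None was 2-fold higher in each, against 3.65% of all genes. Their median mean log2 difference was -0.99. Without replicate 3, 4 were 2-fold lower, these 3 and NSDHL, against 5.50% of all genes. edgeR called none of them, and DESeq2 called 1, MSMO1 (adjusted p = 0.00732).

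Between acetyl-CoA and squalene, FDPS, which makes farnesyl diphosphate just upstream of squalene synthase, had 61.2 CPM in the control and 19.1, 19.8 and 28.0 CPM in replicates 1, 2 and 3. MVD, the mevalonate diphosphate decarboxylase, had 31.4 against 14.6, 15.2 and 15.1 CPM, with log2 differences between -1.05 and -1.10. ACAT2, the thiolase that makes acetoacetyl-CoA, had differences of -0.97, -0.81 and -1.18. MVK and PMVK, the kinases of mevalonate and phosphomevalonate, differed less. MVK had 11.7 CPM in the control and 10.2, 10.6 and 8.39 CPM in replicates 1, 2 and 3, and its ratios in replicates 1 and 2, 0.872 (95% interval 0.713 to 1.07) and 0.898 (0.734 to 1.10), were not below 1 beyond counting error. PMVK had 14.0 against 10.1, 11.9 and 6.47 CPM, and its ratio in replicate 2, 0.856 (0.710 to 1.03), was not either. IDI2, a paralogue of IDI1 known from muscle, had 0, 2, 0 and 7 counts.

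After lanosterol, MSMO1, the C4-methyl sterol oxidase, had 127 CPM in the control and 32.6, 31.9 and 43.1 CPM in replicates 1, 2 and 3. Its mean log2 difference, -1.84 ± 0.24 (SD, n = 3), was of the size of those of IDI1 and INSIG1. NSDHL, which acts with MSMO1 in C4 demethylation, had differences of -1.81, -1.28 and -0.90. SC5D, the lathosterol oxidase, had 172 CPM in the control and 106, 118 and 108 CPM in replicates 1, 2 and 3. LBR, which joins C14 reductase activity with a role in the nuclear envelope, lay above the control in all 3, at 202 CPM against 223, 217 and 214 CPM. CYP51A1, lanosterol demethylase, had 22 to 53 counts and did not pass the minimum. Another annotated gene on the same strand shares 2844 of its exon bases, so reads can be assigned elsewhere and the level of CYP51A1 is uncertain.

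**Figure D4:**
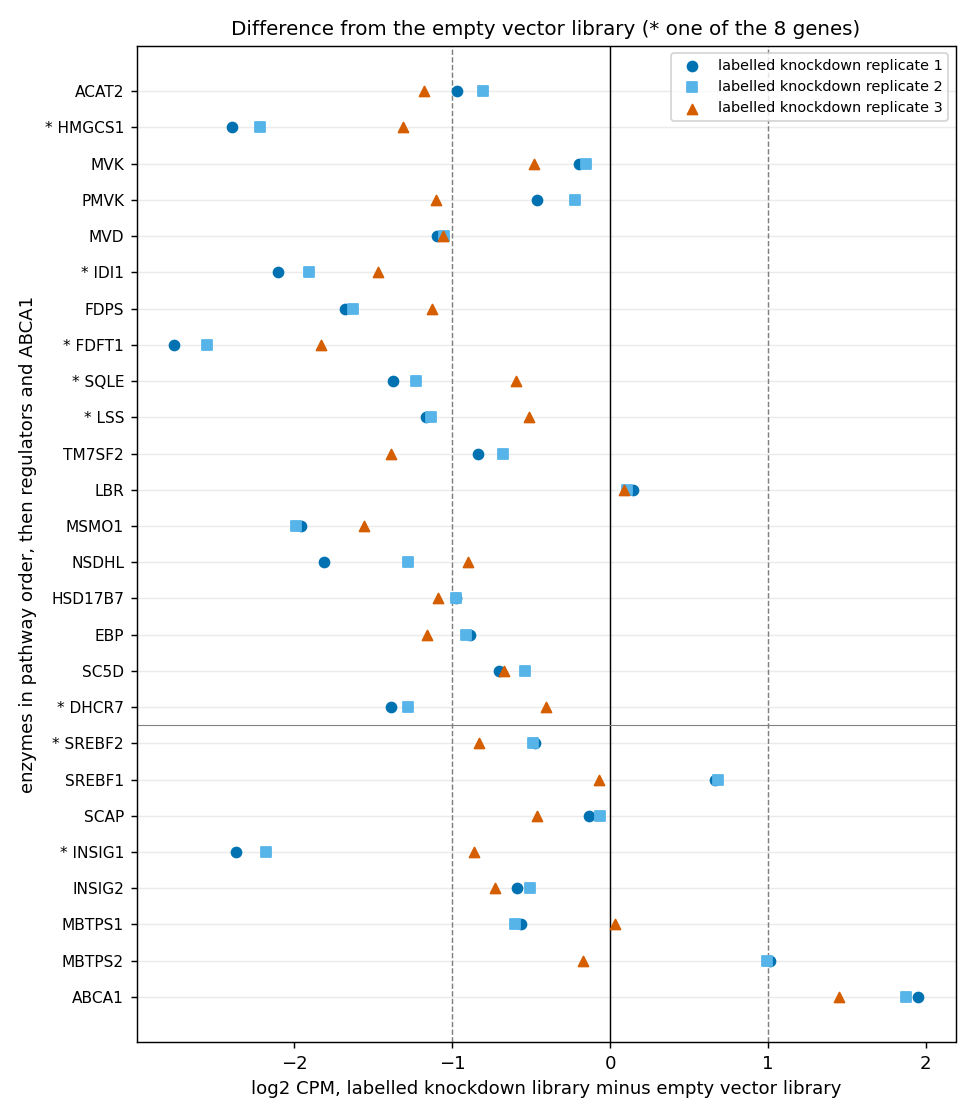
Log2 CPM of each labelled knockdown library minus the empty vector library, for 18 enzymes in pathway order and, under the line, regulators and ABCA1; each marker is 1 library and dashed lines mark 2-fold. All enzymes but LBR lie left of 0, FDFT1 reaches furthest at -2.76, and ABCA1 lies to the right.

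The proteins that move and cut SREBP did not share this pattern. Of 10 genes, all tested, 0 were 2-fold lower and 0 were 2-fold higher in each library, against 2.72% and 3.65% of all genes. At such shares a list this short can hold none. Below the empty vector library in all 3 were 3 of them, against 34.2% of all genes, and the median mean log2 difference was 0.00. SCAP, the sterol-sensing escort, had 146 CPM in the control and 133, 140 and 106 CPM in replicates 1, 2 and 3. INSIG2, the paralogue of INSIG1, had 8.37 against 5.54, 5.88 and 5.03 CPM. MBTPS1, the site-1 protease, had log2 differences of -0.56, -0.60 and 0.03, and MBTPS2, the site-2 protease, had 1.01, 0.99 and -0.17. MBTPS2 shares 1093 exon bases with YY2 on the same strand, so its counts are uncertain. SREBF1, the gene of SREBP1, had 22.0 CPM in the control and 34.8, 35.4 and 20.9 CPM in replicates 1, 2 and 3, higher in replicates 1 and 2 and at a like level in replicate 3. Replicate 3 was the lowest of the labelled knockdown libraries for SCAP, INSIG2, MBTPS2 and SREBF1, as it was for SREBF2.

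Sterol-responsive genes outside the synthesis pathway gave a mixed picture. Of 7 genes for uptake, intracellular transport and related roles, 6 were tested, and their median was -0.40. Of the 6, 0 were 2-fold lower or higher in each library, against 2.72% and 3.65% of all genes. Without replicate 3, 1 was 2-fold lower, TMEM97, a binding partner of NPC1, against 5.50% of all genes. TMEM97 had 102 CPM in the control and 38.0, 38.2 and 79.2 CPM in replicates 1, 2 and 3. NPC1, which exports cholesterol from lysosomes, lay above the empty vector library in all 3, with 28.5 CPM in the control and 47.3, 49.8 and 38.4 CPM in replicates 1, 2 and 3. Its mean log2 difference was 0.65 ± 0.20 (SD, n = 3), against -1.07 ± 0.61 for TMEM97.

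Genes of cholesterol efflux, esterification and oxysterols, many of them targets of the sterol-activated receptor LXR, included 9 tested of 16. ABCA1, the transporter that exports cholesterol to apolipoproteins, was the 1 gene 2-fold higher in each library, against 3.65% of all genes. It had 30.1 CPM in the control and 117, 110 and 82.4 CPM in replicates 1, 2 and 3, a mean log2 difference of 1.76 ± 0.27 (SD, n = 3), and DESeq2 called it (adjusted p = 0.00957) while edgeR did not (adjusted p = 0.358). NR1H3, the gene of LXR alpha, was the 1 gene 2-fold lower in each library (2.72% of all genes), with 27.7 against 12.2, 12.3 and 13.7 CPM. The median of the 9 was 0.21. APOE, another LXR target, had 58.1 CPM in the control and 35.4, 37.8 and 78.3 CPM in replicates 1, 2 and 3.

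Fatty acid genes, many of them driven by SREBP1, and the non-sterol isoprenoid branch held no gene 2-fold lower or higher in each library. Over all genes tested these shares were 2.72% lower and 3.65% higher. The 12 tested fatty acid genes of 14 had a median of 0.02, and the 8 isoprenoid genes had a median of -0.27. FASN, fatty acid synthase, had 367 CPM in the control and 284, 275 and 369 CPM in replicates 1, 2 and 3, and SCD, stearoyl-CoA desaturase, had 306 against 306, 311 and 269 CPM. The lowest means were those of ACSS2 and ACLY, which supply acetyl-CoA to both fatty acid and sterol synthesis, at -1.13 ± 0.20 and -0.72 ± 0.08 (SD, n = 3).

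**Figure D5:**
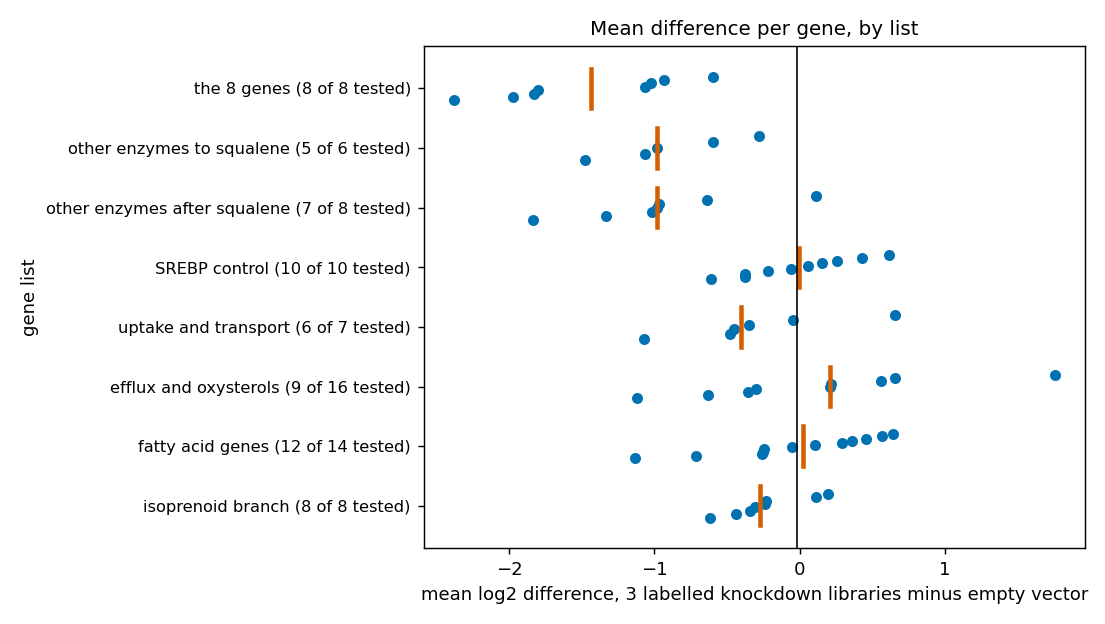
Mean log2 difference of the 3 labelled knockdown libraries from the empty vector library for each tested gene, by list; points are genes, orange bars are list medians and the black line is the median of all genes tested, -0.02. The 8 genes have a median of -1.44, and the lists of SREBP control and fatty acid genes lie around the line.

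The genes most like the 8 in their course over the 4 libraries were sought among 11073 other protein-coding genes with a mean of at least 5 CPM, by the distance between log2 CPM centred on each gene's mean. The nearest were PIMREG, PCNA, FAM189B, NOA1 and FKBP4, at distances from 0.0561 to 0.121 from the mean course of the 8. PCNA, the replication clamp, had 330 CPM in the control and 105, 109 and 167 CPM in replicates 1, 2 and 3. FKBP4, a co-chaperone of steroid receptors, had 860 against 239, 269 and 458 CPM. The closest of the 8 themselves, SQLE, lay at 0.333, and 70 other genes were nearer than that. Over 4 libraries, of which 2 are nearly alike, such a course is shared by many genes.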

How the data were processed

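RNA of 4 NT2 libraries was sequenced after depletion of ribosomal RNA, with dUTP strand marking, per the labels' protocols. Raw counts of 62696 genes were deposited by the authors, 1 file for each library, and the submitters' processing notes name STAR 2.7.11b, featureCounts 2.0.6, DESeq2 and GRCh38, without settings. Per the file headers the count columns carry names of a LacZ control and GKAP_KIF27 sets, which are not those of the labels; files were assigned by the series record. Between 65.2% and 68.0% of nonzero counts were even, as if each pair had been counted as 2 reads, so counting intervals (95%, exact binomial for ratios, exact Poisson for levels) used counts divided by 2. PCR copies are not separate molecules, so intervals cover counting error only.

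CPM were scaled with TMM factors (0.953 for the empty vector, 0.990, 0.969 and 1.094 for replicates 1, 2 and 3) from edgeR 4.0.16 in R 4.3.3, and log2 CPM used a prior count of 2. A gene was 2-fold lower or higher when all 3 labelled knockdown libraries differed from the empty vector library by at least 1 in log2 CPM, all to 1 side, among 15880 genes with a mean of the group means of at least 1 CPM. edgeR's quasi-likelihood test, with filterByExpr and Benjamini-Hochberg adjustment at 0.05, used all 4 libraries or left out 1; DESeq2 1.42.0 was the alternative. When a replicate was left out, the lone empty vector library was assumed to vary like the remaining pair. RPKM used the union of exons in GENCODE 29 on GRCh38, which matched 58269 identifiers without version. Lowess trends (span 0.3) were fitted on exon length and GC content. On simulated data with 200 of 10914 genes changed 4-fold, the 2-fold rule found 91.0% and edgeR 52.5%, but the rule also called 91 unchanged genes and edgeR 8. The simulated libraries all varied alike, and their genes had passed a higher expression minimum. In the data replicates 1 and 2 are nearly alike and replicate 3 stands apart, so these rates may not carry over. The 8 genes, the lists of the pathway and the marker lists were chosen with earlier results of these data known. Named genes are the 8, the listed enzymes and SREBP regulators, ABCA1, APOE, FASN, SCD, genes past the 2-fold rule, those of largest mean difference in a list, and the 5 nearest in course. Some genes of the pathway are not reported here and enter no list. RefSeq promoter windows matched 6 of the 8 genes.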

Additional observations from a re-analysis of the deposited data

How the results depend on the processing

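No paired analysis was possible because only the labelled knockdown libraries carry numbers and the control is a lone library. The mean log2 difference of each of the 8 genes kept its direction and moved by less than 1 SD between replicates in all 72 gene and setting combinations run, from other scalings and prior counts to trend removal and left-out replicates. For left-out replicates this outcome was fixed in advance. Each gene was below the control in all 3 libraries, and leaving out 1 of 3 values cannot move their mean by 1 SD. Their median stayed between -1.34 and -1.46 under other scalings, prior counts and trend removal, and between -1.22 and -1.67 without 1 replicate. The number of the 8 that were 2-fold lower was 3 under each scaling, prior count, expression minimum and trend removal, 5 with a 1.5-fold rule and 6 with a rule on the mean, and from 3 to 7 without 1 replicate, the 7 being without replicate 3. None of the 8 was 2-fold higher under any of these settings. Over all genes, 580 were 2-fold higher and 432 lower. With a mean CPM of 0.1 these became 1605 and 1035, with 5 they became 377 and 254, with 1.5-fold 1590 and 1526, and with the rule on the mean 1356 and 1074. Without 1 replicate they ran from 606 to 1515 and from 489 to 873, the highest being without replicate 3. Total-count scaling changed the split most, to 731 higher and 321 lower. edgeR's 0 calls became 253 with DESeq2 and from 17 to 11177 without 1 replicate, the highest again without replicate 3, where the spread comes from 2 nearly alike libraries; at an unadjusted p under 0.05 edgeR gave 3023 genes. The causes of the other shifts were not tested. Each of the 8 genes had at least 362 counts in every library. At this depth the order of level per length between neighbours among DHCR7, IDI1, HMGCS1 and SQLE in the control was not resolved. DHCR7 did lie above SQLE beyond counting error.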
